A study of Mus musculus with 16 samples.

Results

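A set of 9 genes of fatty acid use was followed by their symbols in the pancreas of lean, obese and treated obese mice: Pdk4, Angptl4, Cpt1a, Acot1, Acot2, Plin2, Ucp2, Ucp3 and Acadl. All 9 were among the 24411 gene symbols of the count table, and 8 of them passed the filter on low counts, which kept 13660 genes. The rule that chose them used their symbols alone, with earlier results of these data known. The mice were 16 C57BL6/J males of 12 weeks of age, and each library came from pulverized pancreas of 1 mouse. Of these, 5 were lean wild-type mice (WT), 7 were Lep(ob/ob) mice, which lack functional leptin and become obese, and 4 were Lep(ob/ob) mice that drank a CCK receptor antagonist (CCKR-I) for 6 weeks. Proglumide at 0.1 mg/ml was given to 2 of the treated mice and lorglumide at 0.05 mg/ml to the other two. The labels give WT mice as bred in house and Lep(ob/ob) mice as bought, while the study's methods give both as bought. Where the labels hold, genotype and origin cannot be told apart. The other 12 mice had control water. The ob mutation is carried in all cells, so a difference is not particular to the pancreas by design. The labels do not say whether mice of a group shared a litter or cage.

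PPARs are nuclear receptors that fatty acids bind and that then raise the transcription of genes for taking up, storing and burning fat. The pancreas is mostly acinar tissue, with islets, ducts, vessels and fat cells between the lobules, and it is not among the organs best known for fat oxidation. CPT1A lets long fatty acids into mitochondria, ACADL starts a round of their oxidation, and PDK4 keeps pyruvate out of mitochondrial oxidation. Fat cells carry a high level of several of the same genes, so the adipocyte genes Adipoq, which encodes the hormone adiponectin, and Plin1, which coats the fat droplet of fat cells, were read in every mouse. The mean of their log2 CPM is called the adipocyte score. CPM stands for the reads of a gene relative to the total of its library, scaled between mice by the TMM method. In bulk RNA, fewer cells of a type and less RNA per cell cannot be told apart.

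Between 9.87 and 34.5 M reads were counted per mouse, 19.2 to 34.5 M in the first batch named by the labels (A) and 9.87 to 15.9 M in the second (B). Of WT mice 3 were in batch A and 2 in batch B, and of untreated Lep(ob/ob) mice 4 and 3. All 4 treated mice were in batch B. Between 49.3% and 85.0% of reads fell on the 50 genes with most reads. Acinar markers, which mark the labelled tissue, summed to 131800 to 558500 CPM in WT mice (median 506500), 138000 to 512800 CPM in untreated Lep(ob/ob) mice (median 337700) and 74230 to 219200 CPM in treated mice (median 129700). None of the 5 acinar genes passed in any comparison by edgeR. Lep mRNA, which the ob mutation does not remove, was at 0.986 to 3.68 CPM in WT and 14.2 to 477 CPM in Lep(ob/ob) mice, so it does not check the genotype. Body weight does, at 27.7 ± 3.22 g (SD, n = 5) in WT and 51.0 ± 1.98 g (SD, n = 7) in Lep(ob/ob) mice.

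The adipocyte score was uneven between mice of 1 genotype. Lep(ob/ob) mice 417, 461 and 463 had scores of 5.74, 5.69 and 7.20, proglumide-treated mouse 69 had 6.52, and the other 12 mice had at most 4.73. In WT it was 2.32 to 4.29. Adipoq and Plin1 summed to 9.94 to 39.3 CPM in WT, 15.5 to 314 CPM in Lep(ob/ob) and 35.4 to 196 CPM in treated mice. Of the 8 adipocyte markers read, none was at 0 in a whole group, and between Lep(ob/ob) and WT mice none passed upward and 2 fell, Cfd and Adrb3. Adipoq, Plin1, Cidec and Lipe had log2 fold changes of 1.43, 1.74, 2.24 and 1.56 that did not pass (edgeR adjusted p = 0.252, 0.199, 0.0849 and 0.174). The brown fat markers Ucp1, Cidea and Elovl3 summed to at most 0.856 CPM in any mouse, and 4 skeletal muscle markers to at most 3.85 CPM. Of the muscle markers 1 was tested, Acta1, at 0.0113 ± 0.0254 CPM (SD, n = 5) in WT and 1.284 ± 1.202 CPM (SD, n = 7) in Lep(ob/ob) mice. No WT mouse reached the threshold of the filter on low counts for it.

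The genes differed widely in level. Per kilobase of exon, WT mice had 7.29 ± 1.80 CPM (SD, n = 5) of Acadl, 3.91 ± 1.17 of Cpt1a, 3.37 ± 0.403 of Ucp2 and 1.70 ± 0.496 of Plin2. Below these stood Acot2 at 0.604 ± 0.287, Angptl4 at 0.509 ± 0.514, Pdk4 at 0.388 ± 0.192, Ucp3 at 0.143 ± 0.0491 and Acot1 at 0.112 ± 0.0358 CPM per kilobase. Cpt1a and Ucp2 lay within their spread of each other, as did Acot2, Angptl4 and Pdk4, and Ucp3 and Acot1. In Lep(ob/ob) mice the same level was 14.4 ± 5.67 (SD, n = 7) for Acadl, 7.28 ± 7.72 for Plin2, 7.13 ± 1.84 for Ucp2 and 5.37 ± 1.29 for Cpt1a, and Plin2 stood next to Acadl, with a spread wider than its mean. Pdk4 then stood at 1.44 ± 0.732, above Acot2 at 0.694 ± 0.272. Exon lengths are from GENCODE, and the annotation the reads were counted on is not given in the sources used here.

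**Figure D1:**
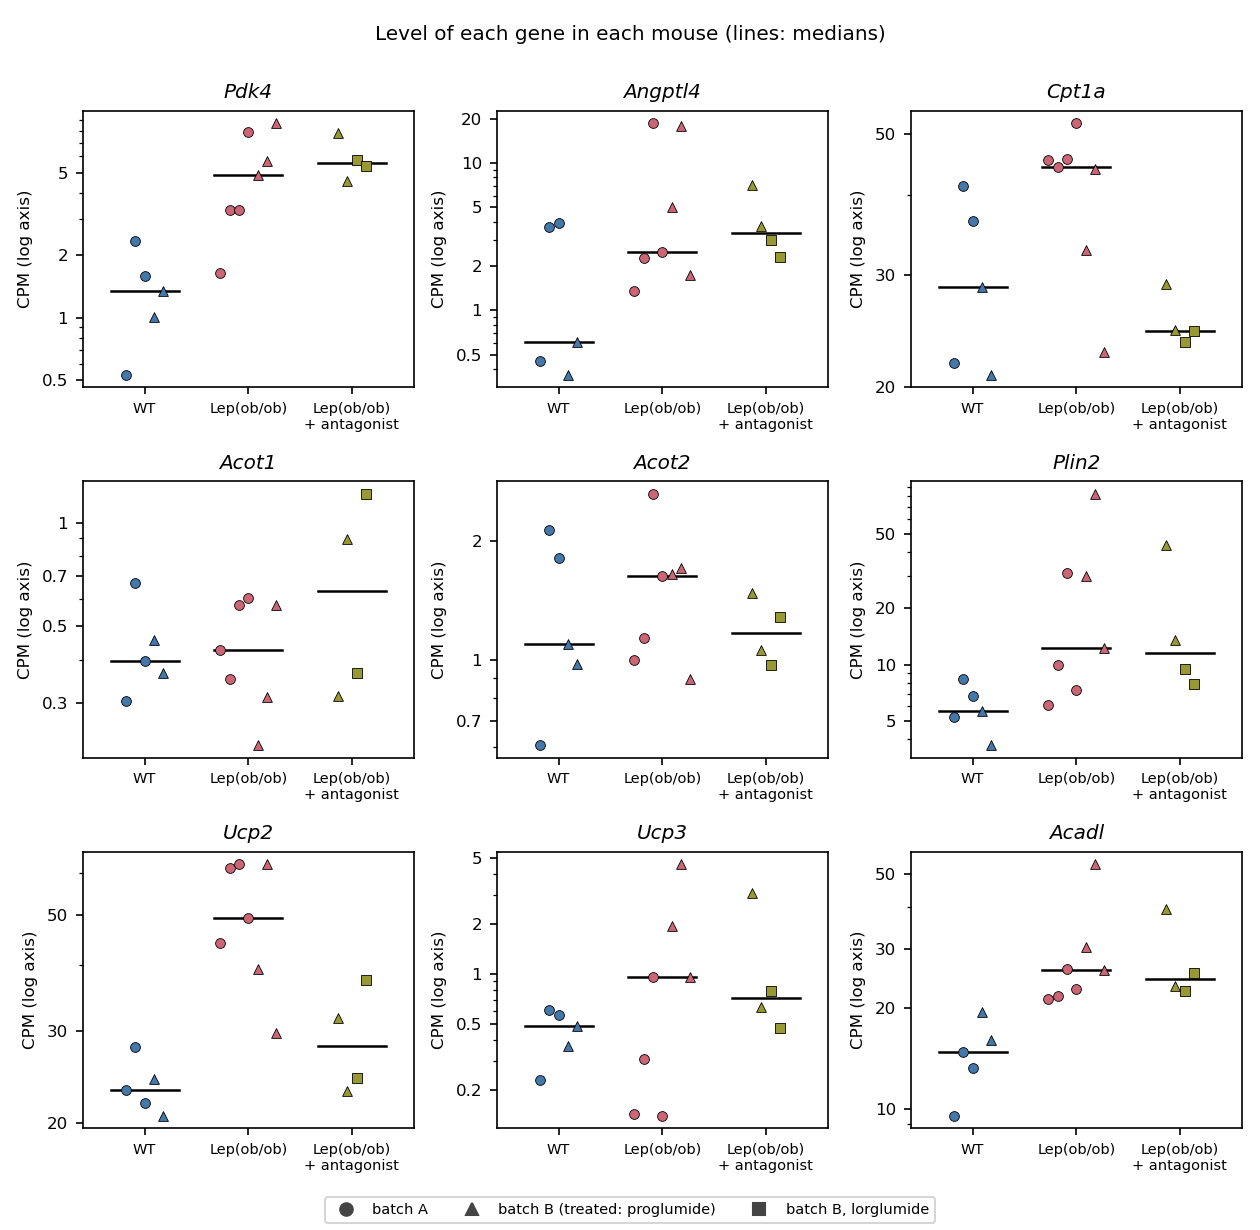
CPM (log axis) of the 9 genes in each of the 16 mice, by group, with the symbol giving batch and drug and the line the group median. Every untreated Lep(ob/ob) mouse lies above every WT mouse for Ucp2 and Acadl, while Plin2, Angptl4 and Ucp3 are spread widely among Lep(ob/ob) mice, with mouse 463 at 82.4 CPM of Plin2.

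The first comparison asked how obesity changed these genes. Pdk4, Ucp2 and Acadl rose in Lep(ob/ob) pancreas, and no gene of the 8 tested fell. That is 37.5% of those tested, where 5.93% of all 13660 genes rose and 3.14% fell (edgeR quasi-likelihood test, Benjamini-Hochberg adjusted p under 0.05). Angptl4, Plin2, Cpt1a, Ucp3 and Acot2 also had positive log2 fold changes but did not pass. Acot1 was too low to be tested. Ucp3 passed the filter mainly through obese mice, since 1 of 5 WT mice and 7 of 11 obese mice reached its threshold of 0.667 CPM, taken here before TMM scaling. The median log2 fold change of the 8 genes was 1.02, and that of all genes -0.02.

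Pdk4 encodes the kinase that switches off pyruvate dehydrogenase, so that cells burn fat in place of glucose. It was at 0.531, 2.34, 1.59, 1.01 and 1.34 CPM in WT mice 5489, 5492, 5494, 58 and 59. In Lep(ob/ob) mice the lowest value was 1.64, the median 4.89 and the highest 8.69 CPM. Lep(ob/ob) mouse 441 fell within the WT range and the other 6 lay above it. The log2 fold change was 1.82 ± 0.39 (SE), a 3.53-fold rise (edgeR adjusted p = 0.00722). Within batch A it was 1.48 ± 0.57 (edgeR adjusted p = 0.165) and within batch B 2.41 ± 0.38 (edgeR adjusted p = 0.0617), so the call needed both batches.

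Ucp2 encodes a mitochondrial carrier that islet, immune and fat cells carry. WT mice 5489, 5492, 5494, 58 and 59 had 23.1, 28.01, 21.8, 24.2 and 20.7 CPM, and Lep(ob/ob) mice had from 29.8 to 62.4 CPM, with a median of 49.2. The ranges did not overlap over all mice, and separation within each batch follows from that. Its log2 fold change was 1.08 ± 0.18 (SE), a 2.11-fold rise (edgeR adjusted p = 0.00124). Batch A alone gave 1.22 ± 0.17 (edgeR adjusted p = 0.00151) and batch B alone 0.93 ± 0.32 (edgeR adjusted p = 0.222).

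Acadl encodes the long-chain acyl-CoA dehydrogenase of mitochondria. It was at 9.56, 14.8, 13.3, 19.4 and 16.1 CPM in the WT mice in the same order, and at 21.3 to 53.6 CPM in Lep(ob/ob) mice, with a median of 26.0. Here too each Lep(ob/ob) mouse exceeded each WT mouse. The log2 fold change was 0.95 ± 0.19 (SE), a 1.93-fold rise (edgeR adjusted p = 0.00498). It was 0.93 ± 0.17 in batch A (edgeR adjusted p = 0.00750) and 1.02 ± 0.34 in batch B (edgeR adjusted p = 0.222). Over all genes, 2.92% were higher in every Lep(ob/ob) mouse than in every WT mouse, against 2 of the 8 tested here.

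Batch B alone compared 3 with 2 mice and called 8 genes in all, none of the 9, while batch A alone called 1145 genes, Ucp2 and Acadl among them. The test of the difference between batches found 0 of the 13660 genes (0%) unlike, none of the 8 included. At an unadjusted p under 0.05 it gave 1499 genes and 1 of the 8, Ucp3, by edgeR, and no other tool was run on it.

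Angptl4 encodes a secreted inhibitor of lipoprotein lipase and Plin2 the coat protein of lipid droplets outside fat cells. Angptl4 was at 0.455, 3.68, 3.91, 0.366 and 0.608 CPM in WT mice 5489, 5492, 5494, 58 and 59, and at 1.35 to 18.6 CPM in Lep(ob/ob) mice, with a median of 2.47. Mice 417 and 463 had 18.6 and 17.7 CPM and no other Lep(ob/ob) mouse more than 5.04, so the ranges of both genotypes overlapped. Its log2 fold change was 2.04 ± 0.81 (SE; edgeR adjusted p = 0.131), the largest of the 8, with the largest standard error.

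Plin2 followed the same mice. The 5 WT mice had 5.23, 8.36, 6.80, 5.67 and 3.71 CPM. In Lep(ob/ob) mice Plin2 reached from 6.11 to 82.4 CPM with a median of 12.3, and mice 417, 461 and 463 stood highest at 31.0, 29.9 and 82.4 CPM. The log2 fold change was 1.81 ± 0.63 (SE; edgeR adjusted p = 0.0855), and DESeq2 called it (adjusted p = 0.0340). Within batch B all 3 Lep(ob/ob) mice lay above both WT mice for Plin2, Angptl4 and Ucp3, which was also so for 17.2% of all genes, and within batch A the ranges of these genes overlapped.

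Ucp3, a carrier best known from skeletal muscle and brown fat, was near the limit of detection. WT mice had 3 to 10 reads, which is 0.228 to 0.602 CPM. Lep(ob/ob) mice of batch A had 0.140 to 0.958 CPM and those of batch B 0.958 to 4.59 CPM. The log2 fold change was 0.97 ± 0.72 (SE; edgeR adjusted p = 0.448). Ucp3 and Ucp2 are neighbours on chromosome 7, Ucp3 at chr7:100472990-100486432 and Ucp2 at chr7:100493337-100502020 on the plus strand (GENCODE, GRCm38).

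Cpt1a, at the gate of mitochondrial fat oxidation, was at 21.8, 41.4, 36.4, 28.7 and 20.9 CPM in WT and at 22.7 to 51.9 CPM in Lep(ob/ob) mice, with a median of 44.3. The 4 Lep(ob/ob) mice of batch A, at 44.3 to 51.9 CPM, lay above the 3 WT mice of that batch, as did 10.7% of all genes, and in batch B the ranges overlapped. The log2 fold change was 0.47 ± 0.17 (SE; edgeR adjusted p = 0.0977). Acot2, which cuts fatty acyl-CoA inside mitochondria, had 0.607 to 2.14 CPM in WT and 0.894 to 2.64 CPM in Lep(ob/ob) mice, with a log2 fold change of 0.23 ± 0.32 (SE; edgeR adjusted p = 0.717).

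Acot1, its cytosolic relative, had 3 to 18 reads per mouse. That was 0.303 to 0.669 CPM in WT, 0.226 to 0.605 CPM in Lep(ob/ob) and 0.314 to 1.21 CPM in treated mice, and the groups overlapped. With no filter on low counts it could be tested, and its log2 fold change between Lep(ob/ob) and WT mice was 0.02 ± 0.42 (SE; edgeR adjusted p = 1). In that fit all 9 genes were tested and the same 3 passed, where 6.66% of all genes passed in either direction. Acot1 and Acot2 lie on chromosome 12, at chr12:84009490-84018371 and chr12:83987861-83993873, and share long stretches. The longest run of bases identical between their coding sequences was 273 bases, and 43.6% of the 50-base stretches of the Acot1 coding sequence occurred in Acot2. Reads from these stretches could be split between both genes or dropped by the counting, so the level of each is uncertain. No other gene of the 9 shared more than 2.57% of its 50-base stretches with another gene. Ucp2 overlaps Dnajb13 and Ucp3 overlaps the antisense gene Gm10603 on the opposite strand, and Acadl overlaps the pseudogene Gm15793 on its own strand. Whether the counting used strand is not given in the sources used here, so reads of such partners could not be told apart from theirs where the genes overlap.

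**Figure D2:**
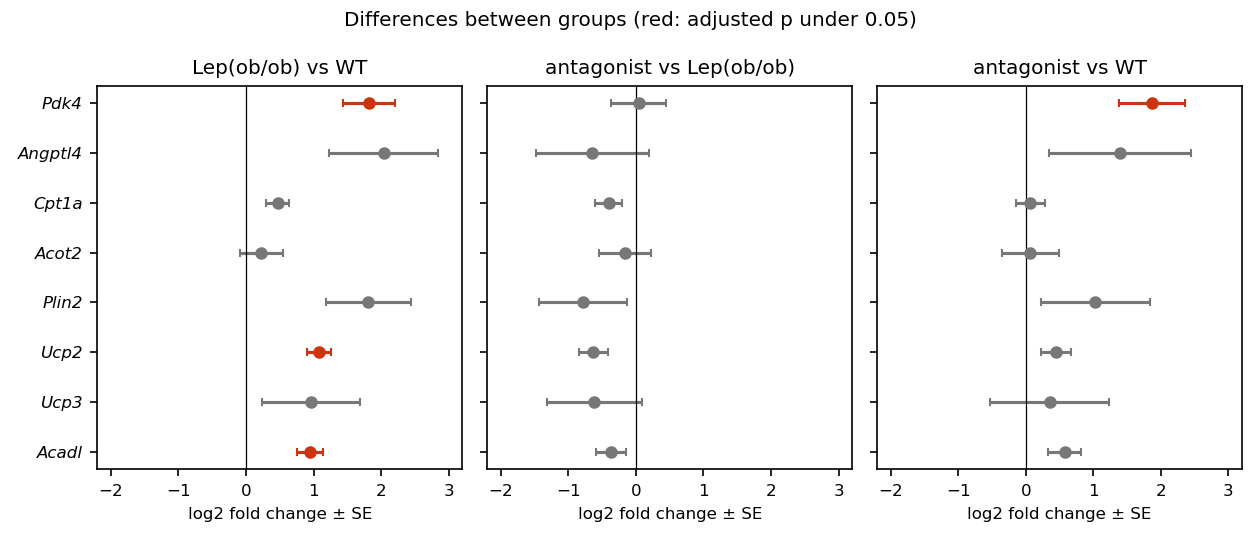
Log2 fold change with its standard error for the 8 genes tested, in 3 comparisons (x axis, with WT or Lep(ob/ob) mice as the reference). Pdk4, Ucp2 and Acadl passed between Lep(ob/ob) and WT mice, none passed between treated and untreated Lep(ob/ob) mice, and Pdk4 passed between treated and WT mice.

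The genes were then read against the adipocyte score. With the score as a covariate beside group and batch, 5 of the 8 genes rose with it, at an edgeR adjusted p under 0.05, and 19.3% of all genes did so. Per unit of the score, Angptl4 rose by 1.07 ± 0.08 on the log2 scale (edgeR adjusted p = 3.07e-09), Ucp3 by 0.91 ± 0.09 (edgeR adjusted p = 1.20e-07) and Plin2 by 0.81 ± 0.06 (edgeR adjusted p = 1.54e-09). Acot2 rose by 0.31 ± 0.09 (edgeR adjusted p = 0.0107) and Acadl by 0.20 ± 0.05 (edgeR adjusted p = 0.00253). Pdk4, Ucp2 and Cpt1a had slopes of 0.10 ± 0.12, 0.09 ± 0.06 and 0.11 ± 0.05 and did not pass. A slope near 1 means that a gene doubled where Adipoq and Plin1 doubled. Without mouse 463, which had the highest score, 4 of the 8 genes passed, and 2474 of all genes passed in either direction in place of 4854.

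The same fit gave the difference between Lep(ob/ob) and WT mice at an equal score. An equal score is not an equal level of every fat cell gene. Of the 6 adipocyte markers outside the score, 4 fell in this fit, Cfd, Adrb3, Retn and Car3, at log2 fold changes of -4.82, -3.50, -1.52 and -1.42, and Cidec rose by 0.63 (edgeR). Pdk4 had a log2 fold change of 1.71 ± 0.38 (edgeR adjusted p = 0.00362), Ucp2 of 0.94 ± 0.19 (edgeR adjusted p = 0.00125) and Acadl of 0.65 ± 0.15 (edgeR adjusted p = 0.00431), so all 3 passed, where 7.08% of all genes rose. Plin2 dropped to 0.42 ± 0.19 (edgeR adjusted p = 0.185) and Angptl4 to 0.40 ± 0.27 (edgeR adjusted p = 0.404). Cpt1a was at 0.32 ± 0.16 (edgeR adjusted p = 0.235). Ucp3 turned to -0.67 ± 0.33 (edgeR adjusted p = 0.214) and Acot2 to -0.20 ± 0.28 (edgeR adjusted p = 0.741).

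Leaving out mice 417, 461, 463 and 69, an alternative chosen after the scores had been seen, called the same 3 genes. It left mouse 464 as the only untreated Lep(ob/ob) mouse of batch B. Pdk4 was then at 1.98 ± 0.40 (edgeR adjusted p = 0.00240), Ucp2 at 0.90 ± 0.17 (edgeR adjusted p = 0.00150) and Acadl at 0.74 ± 0.12 (edgeR adjusted p = 0.000529). Plin2 was at 0.59 ± 0.24 (edgeR adjusted p = 0.119), Cpt1a at 0.34 ± 0.17 (edgeR adjusted p = 0.237), Angptl4 at 0.08 ± 0.45 (edgeR adjusted p = 0.945) and Ucp3 at -0.26 ± 0.50 (edgeR adjusted p = 0.822).

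**Figure D3:**
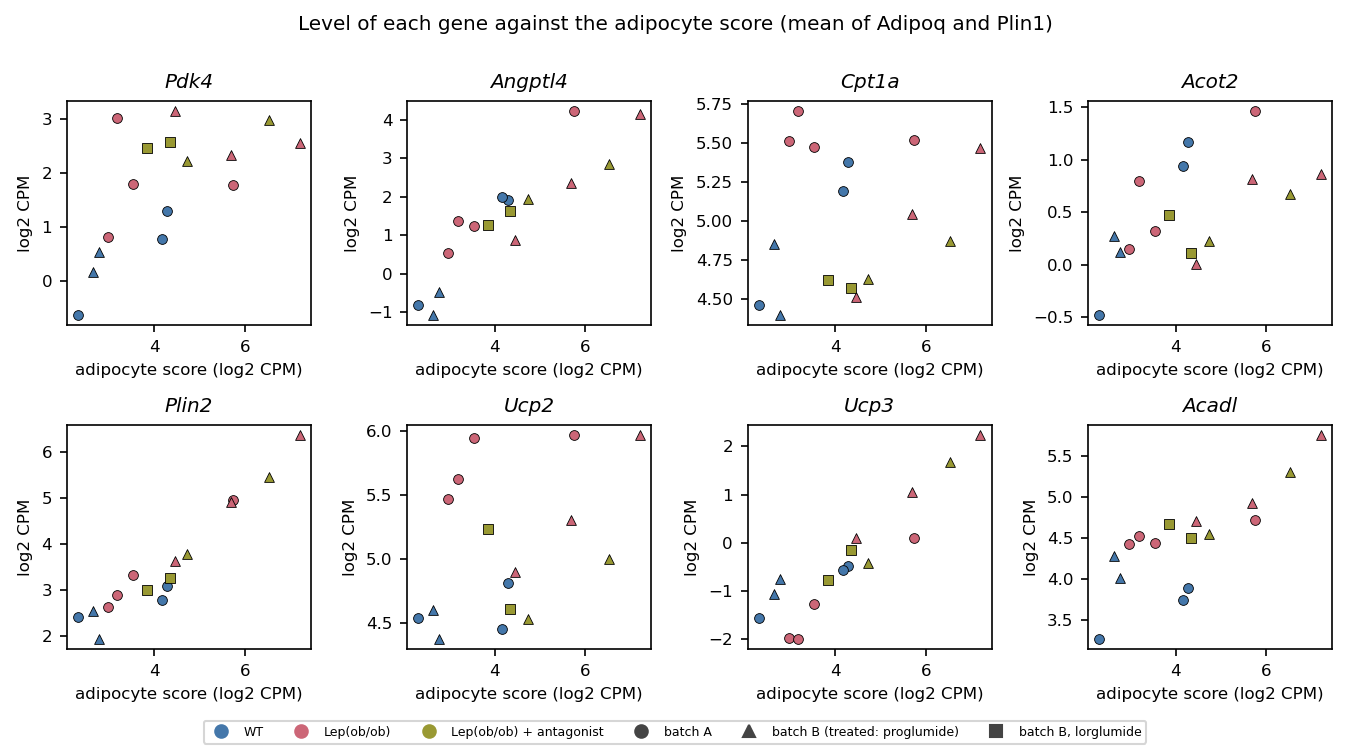
Log2 CPM of 8 genes (y axis) against the adipocyte score (x axis, mean log2 CPM of Adipoq and Plin1) in 16 mice, with colour for group and symbol for batch and drug. Plin2, Angptl4 and Ucp3 climb with the score, and for Ucp2 all untreated Lep(ob/ob) mice lie above the WT mice, none of which has a score over 4.29.

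**Figure D4:**
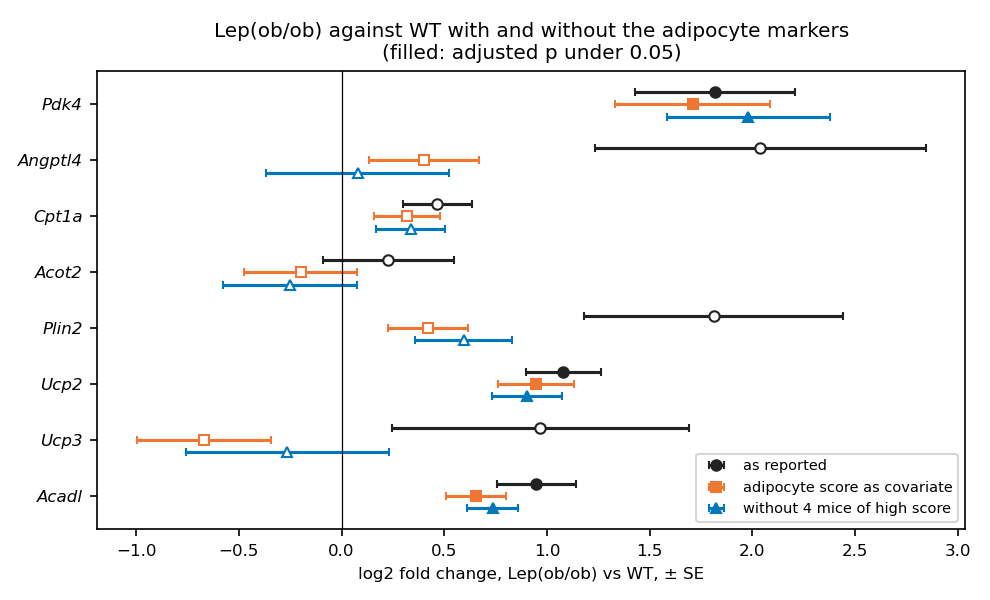
Log2 fold change between Lep(ob/ob) and WT mice with its standard error, as reported, with the adipocyte score as covariate, and without mice 417, 461, 463 and 69. Pdk4, Ucp2 and Acadl stay past the threshold in all 3 fits, Plin2 and Angptl4 shrink, and Ucp3 and Acot2 change sign.

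Across the 16 mice, after removal of the batch term, the log2 CPM of each gene was compared with that of all genes tested, as a description. Closest to Angptl4 were Plin4, Adipoq and Cidec (Pearson r = 0.971, 0.969 and 0.965, n = 16), which are genes of the fat droplet and of fat cells. Closest to Plin2 were Slc22a3, Prelp and Lpl (r = 0.991, 0.990 and 0.989), and closest to Ucp3 were Adig, Clec10a and Mfge8 (r = 0.971, 0.964 and 0.961). Pdk4 had other neighbours, Per1, Sesn1 and Hif3a (r = 0.925, 0.909 and 0.896). Ucp2 was closest to Galns, Cab39l and Itm2c (r = 0.923, 0.922 and 0.920), Acadl to Rasd1, Kcnj15 and Glb1l2 (r = 0.949, 0.931 and 0.927), Cpt1a to Kif20a, Enpp4 and Fam46b (r = 0.884, 0.874 and 0.872) and Acot2 to Hcar1, Cdc25b and Tbl1xr1 (r = 0.870, 0.864 and 0.841). Among the members, the closest pairs were Plin2 with Ucp3 (r = 0.899), Ucp2 with Acadl (r = 0.890) and Angptl4 with Plin2 (r = 0.885). The most distant pair was Pdk4 with Ucp3 (r = 0.344). These mice share group differences, so such values also carry the difference between groups.

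Islet markers moved with the genotype as well. Of 7, 5 rose between WT and Lep(ob/ob) mice, Ins1, Ins2, Iapp, Ppy and Chga, and the 7 summed to 1294 to 1909 CPM in WT and 2560 to 13100 CPM in Lep(ob/ob) mice. With the mean log2 CPM of the islet markers as a covariate, added after the data had been seen, Ucp2 had a log2 fold change of 1.14 ± 0.24 (edgeR adjusted p = 0.00223) and a slope of -0.03 ± 0.09 on the islet score (edgeR adjusted p = 0.807). Plin2, Ucp3 and Acadl fell with the islet score, by 0.94, 1.01 and 0.24 on the log2 scale per unit, and so did 15.4% of all genes. In that fit 7 of the 8 genes passed between Lep(ob/ob) and WT mice, Acot2 being the exception, where 15.9% of all genes rose, and 3912 of all genes passed in place of 1239. Macrophage markers, which also carry Ucp2, summed to 31.9 to 44.1 CPM in WT and 20.9 to 173 CPM in Lep(ob/ob) mice, and 0 of 5 passed in either direction by edgeR. The part of islet and macrophage content in the level of Ucp2 within 1 mouse was not tested.

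The other genes of the pathway were read from 9 lists of 116 genes, of which 98 were tested. Between Lep(ob/ob) and WT mice 5 were called higher (5.10%), with Fabp3, nearly without reads in WT mice, among them, and 1 lower (1.02%), beside 5.93% and 3.14% of all genes. The median log2 fold change of the 98 was 0.20. Plin1, part of the adipocyte score, is also among them. Mitochondrial beta-oxidation had 2 risers among 16 genes. Acaa2, the thiolase that ends each round, was at 9.49 to 24.7 CPM in WT and 18.6 to 27.7 CPM in Lep(ob/ob) mice, with a log2 fold change of 0.49 ± 0.14 (SE; edgeR adjusted p = 0.0320). Eci2, an isomerase for unsaturated fatty acids, was at 10.2 to 18.7 CPM in WT and 18.2 to 27.97 CPM in Lep(ob/ob) mice. Its log2 fold change was 0.59 ± 0.13 (SE; edgeR adjusted p = 0.00886).

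In the carnitine shuttle 1 of 7 genes rose, beside 5.93% of all genes. Slc25a20, which carries acylcarnitine across the inner membrane behind CPT1A, went from 1.67 to 4.28 CPM in WT to 4.51 to 10.4 CPM in the obese mice with no overlap, which held for 2.92% of all genes. Its log2 fold change was 0.86 ± 0.23 (SE; edgeR adjusted p = 0.0245). Tsc22d3, a glucocorticoid-induced gene placed among other PPAR targets, rose by 0.67 ± 0.20 (SE; edgeR adjusted p = 0.0492), and was 1 of 11. Of 12 genes for fatty acid uptake, 1 was called higher, the fatty acid carrier Fabp3, at 0 to 0.201 CPM in WT and 0.226 to 0.766 CPM in Lep(ob/ob) mice. No WT mouse reached the filter's threshold, so it was tested only because obese and treated mice did, and no fold is given. Its level is below the level set for naming a gene, and was named after its values had been seen. No gene passed in either direction among 11 of lipid droplets and lipolysis, 15 of peroxisomal oxidation, 6 other acyl-CoA thioesterases and 10 of the pyruvate switch, ketogenesis and uncoupling (edgeR). With the adipocyte score as covariate Eci2 still passed, and Fabp3 was called with the same limit from the filter. Acaa2, Slc25a20 and Tsc22d3 did not, at log2 fold changes of 0.36, 0.57 and 0.42 (edgeR adjusted p = 0.0792, 0.0598 and 0.0992). In that fit 4 other genes passed upward, chosen for naming after their values had been seen. They were Hadh of beta-oxidation at 0.51, Pex11a of peroxisomes at 0.73 and the fat droplet genes Plin4 and Cidec at 0.82 and 0.63 (edgeR adjusted p = 0.0140, 0.0178, 0.00229 and 0.00842). Together 6 of the 98 genes passed upward in that fit, where 7.08% of all genes rose, and 4 passed downward. Among those that fell were Oxct1 and Pck1, at -0.70 and -0.63 (edgeR adjusted p = 0.00659 and 0.0326), also named after their values had been seen.

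Of the 10 receptors and partners tested 1 passed, and it fell, as did 3.14% of all genes. Ppara, the PPAR of fat-burning organs, was at 10.2 to 14.4 CPM in WT and 4.75 to 9.59 CPM in Lep(ob/ob) mice. It was lower in each of these than in each WT mouse, as were 1.12% of all genes, and fell by 0.72 ± 0.14 on the log2 scale (edgeR adjusted p = 0.00344). At an equal adipocyte score its log2 fold change was -0.67 (edgeR adjusted p = 0.00391). Pparg, the PPAR of fat cells, was at 1.67 to 4.21 CPM in WT and 2.56 to 32.3 CPM in Lep(ob/ob) mice, with a log2 fold change of 1.48 ± 0.61 (SE; edgeR adjusted p = 0.146) that became 0.24 at an equal adipocyte score (edgeR adjusted p = 0.459). Ppard was at 12.3 to 27.6 CPM in WT and 11.2 to 29.4 CPM in Lep(ob/ob) mice (log2 fold change 0.00 ± 0.12).

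**Figure D5:**
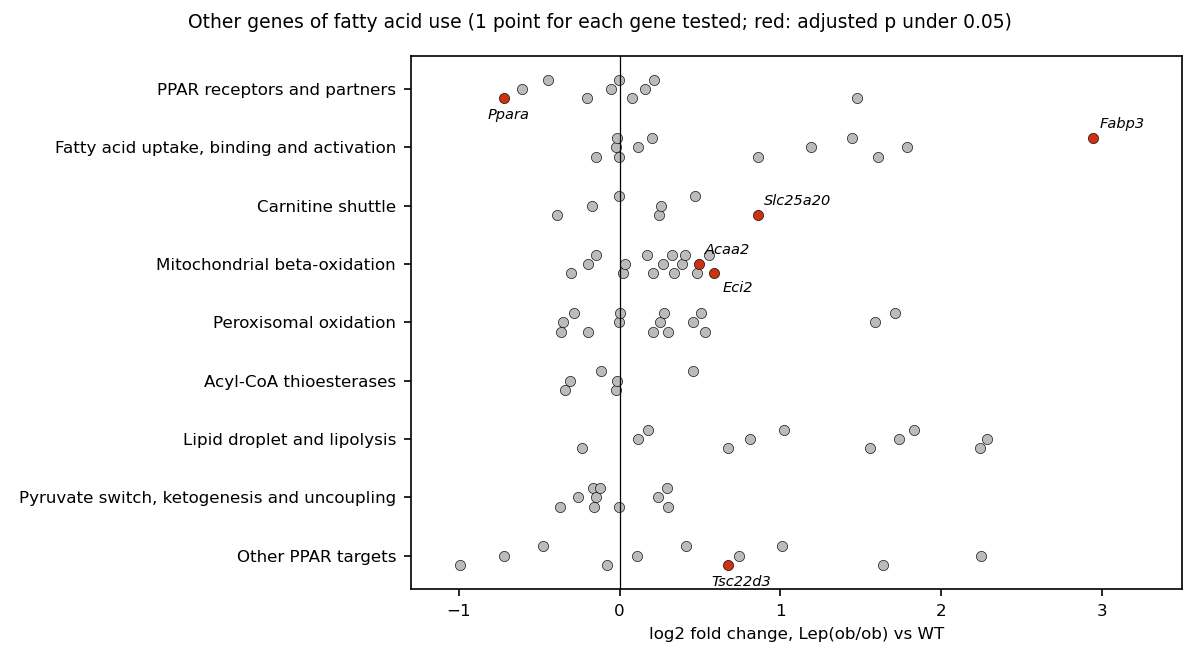
Log2 fold change between Lep(ob/ob) and WT mice (x axis) of the 98 other genes tested, by list, 1 point for each gene. The 6 genes that passed are named, with Ppara at -0.72 and Fabp3, nearly without reads in WT mice, farthest right, and genes of lipid droplets and lipolysis reach beyond 2 without passing.

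The second comparison asked whether a CCK receptor antagonist changed the genes in obese mice. None of the 8 genes passed by edgeR, where 0.0586% of all genes did. None passed by DESeq2 either, which gave no adjusted p for Acot2 and Ucp3. At an unadjusted p under 0.05, edgeR gave 1 of the 8, Ucp2, and 14.3% of all genes, so the count is no more than the background. Ucp2 was at 31.8 and 23.0 CPM in the proglumide mice 69 and 72 and at 24.4 and 37.5 CPM in the lorglumide mice 74 and 76. The 3 untreated Lep(ob/ob) mice of the same batch had 39.3, 62.3 and 29.8 CPM. Mice 72 and 74 lay within the WT range, mice 69 and 76 above it, and the ranges of treated and untreated mice overlapped. The log2 fold change was -0.63 ± 0.21 (SE; edgeR adjusted p = 0.275), and -0.55 ± 0.26 within batch B (edgeR adjusted p = 0.362). All 5 macrophage markers also had negative log2 fold changes here, with a median of -1.43, and 0 of 5 passed by edgeR. With the adipocyte score as covariate 2 of them passed, where 1.46% of all genes did. They were Csf1r at -0.92 and Cd68 at -1.18 (edgeR adjusted p = 0.00276 and 0.0494). The part of macrophage markers in the value of Ucp2 was not tested.

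Pdk4 had the smallest difference of the 8. It was at 7.76 and 4.54 CPM in the proglumide mice and 5.77 and 5.39 CPM in the lorglumide mice, within the range of untreated Lep(ob/ob) mice, with a log2 fold change of 0.04 ± 0.41 (SE; edgeR adjusted p = 0.967). Acadl was at 39.4 and 23.3 CPM with proglumide and 22.5 and 25.3 CPM with lorglumide (log2 fold change -0.37 ± 0.22, edgeR adjusted p = 0.446). Cpt1a was at 29.1, 24.6, 23.6 and 24.5 CPM in mice 69, 72, 74 and 76, and the 3 untreated mice of batch B had 32.9, 44.1 and 22.7 CPM (log2 fold change -0.40 ± 0.20, edgeR adjusted p = 0.372).

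Plin2, Angptl4 and Ucp3 were again highest in 1 mouse. Mouse 69, with an adipocyte score of 6.52, had 43.8 CPM of Plin2, 7.13 of Angptl4 and 3.10 of Ucp3, and the other treated mice had 7.89 to 13.6, 2.29 to 3.75 and 0.472 to 0.790 CPM. The log2 fold changes were -0.78 ± 0.66, -0.64 ± 0.83 and -0.61 ± 0.70 (edgeR adjusted p = 0.571, 0.723 and 0.680). Without the untreated mouse 463 they were 0.12, 0.61 and 0.23, so their sign rested on that mouse. Acot2 was at 0.972 to 1.48 CPM in treated mice (log2 fold change -0.16 ± 0.38, edgeR adjusted p = 0.858). Standard errors of this size leave room for a fall of more than 2-fold in Plin2, Angptl4 and Ucp3. The doses of both drugs differed and each was given to 2 mice, so the drugs were not compared.

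Of the 98 pathway genes, none passed between treated and untreated Lep(ob/ob) mice by edgeR. Their median log2 fold change was -0.17, beside -0.01 for all genes, and 22 of the 98 were above 0, where 48.8% of all genes were. The 98 include fat cell genes such as Plin1, Cidec and Lipe, and the part of fat cell content in these values was not tested. Ppargc1a, a coactivator that works with PPARs to raise mitochondrial genes, was at 3.51 to 7.13 CPM in treated and 1.61 to 3.96 CPM in untreated Lep(ob/ob) mice, with a log2 fold change of 1.07 ± 0.28 (SE; edgeR adjusted p = 0.222). With the adipocyte score as covariate it was the 1 of the 98 genes to pass (edgeR adjusted p = 0.0487), where 1.46% of all genes did. It was named after its values had been seen.

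The third comparison set treated Lep(ob/ob) mice against WT mice. It shares its groups with the other comparisons and is not independent of them. Pdk4 was the only gene of the 8 to pass, where 4.22% of all genes rose. Its 4 treated values, 4.54 to 7.76 CPM, all lay above the highest WT value of 2.34 CPM, and the log2 fold change was 1.86 ± 0.49 (SE; edgeR adjusted p = 0.0312). In batch B alone it was 2.31 ± 0.36 (edgeR adjusted p = 0.0579). The call was lost, at adjusted p of 0.0514 to 0.132, when any 1 of WT mice 5489, 58 and 59, Lep(ob/ob) mouse 461 or treated mice 69 and 74 was left out, and the log2 fold change stayed between 1.64 and 2.10. Acadl was also higher in every treated mouse than in any WT mouse, as were 6.27% of all genes, with a log2 fold change of 0.58 ± 0.24 (SE; edgeR adjusted p = 0.226). It passed without mouse 463 (log2 fold change 0.71, edgeR adjusted p = 0.0344). Ucp2 had a log2 fold change of 0.45 ± 0.23 (edgeR adjusted p = 0.350), and the remaining 5 genes 0.06 to 1.39 with adjusted p of 0.575 to 0.962. Among the pathway genes described above, Ppara passed downward, at a log2 fold change of -0.65. Fabp3, at 0.404 to 1.15 CPM in treated mice, was called higher with the same limit from the filter.

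The stretch before the RefSeq start of each gene was searched for the letters AGGTCA on either strand. This is the half-site of nuclear receptors, of which PPAR with its partner RXR binds a pair spaced by 1 base, AGGTCANAGGTCA. RefSeq (GRCm38.p6) gave the start of 8 of the 9 genes, with Angptl4 as the exception. For Cpt1a this start differs from that of GENCODE, whose gene begins upstream, at chr19:3322334-3385733, so the window lies within the GENCODE gene and outside its exons as printed. The starts differ for other genes too. That of Acadl lies upstream of its GENCODE gene, chr1:66830839-66863277 on the minus strand. The printed stretch of Pdk4 stops 32 bases before its RefSeq start, where an annotated exon begins. In the 250 bases before the start, 3 of the 8 held AGGTCA, and 14.0% of 32851 such windows over all genes did. The pair was in none of the 8 windows and in 0.0335% of all windows. The half-site lay 94 bases before the start in Cpt1a and 218 before it in Plin2, both read on the opposite strand, and at 149 and 44 bases in Ucp3. The 3 genes that rose in Lep(ob/ob) mice had no such letters in this window. Both sets are shown, 5′ to 3′ along the gene's own strand and only where no exon is annotated, with AGGTCA or its complement TGACCT in capitals. No binding of a receptor was measured in these mice, so the letters describe the sequence alone.
Cpt1a (chr19:3323051-3323284, plus strand): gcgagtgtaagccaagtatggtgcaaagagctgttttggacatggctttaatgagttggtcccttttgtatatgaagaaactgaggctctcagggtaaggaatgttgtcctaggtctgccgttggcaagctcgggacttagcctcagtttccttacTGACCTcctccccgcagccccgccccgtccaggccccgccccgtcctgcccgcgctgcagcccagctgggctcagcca
Plin2 (chr4:86670061-86670309, minus strand): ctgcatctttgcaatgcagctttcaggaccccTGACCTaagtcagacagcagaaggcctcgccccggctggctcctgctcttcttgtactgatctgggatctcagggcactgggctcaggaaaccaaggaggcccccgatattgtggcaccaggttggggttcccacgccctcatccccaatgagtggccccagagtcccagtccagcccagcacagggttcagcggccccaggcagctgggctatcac
Ucp3 (chr7:100472741-100472989, plus strand): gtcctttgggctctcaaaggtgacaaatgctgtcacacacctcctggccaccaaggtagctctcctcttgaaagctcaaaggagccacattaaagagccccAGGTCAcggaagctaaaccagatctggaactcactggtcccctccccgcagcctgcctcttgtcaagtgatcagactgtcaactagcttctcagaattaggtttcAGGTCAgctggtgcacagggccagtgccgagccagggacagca
Pdk4 (chr6:5496310-5496528, minus strand): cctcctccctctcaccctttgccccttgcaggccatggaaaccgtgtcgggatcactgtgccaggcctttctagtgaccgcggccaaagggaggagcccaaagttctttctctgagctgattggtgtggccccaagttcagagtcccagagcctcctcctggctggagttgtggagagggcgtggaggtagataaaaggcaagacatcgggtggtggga
Ucp2 (chr7:100493108-100493336, plus strand): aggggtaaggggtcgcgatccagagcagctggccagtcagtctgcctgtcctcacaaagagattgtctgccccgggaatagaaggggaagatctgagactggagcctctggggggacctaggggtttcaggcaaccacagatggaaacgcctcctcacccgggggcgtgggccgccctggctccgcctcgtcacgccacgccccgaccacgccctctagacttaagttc
Acadl (chr1:66863310-66863559, minus strand): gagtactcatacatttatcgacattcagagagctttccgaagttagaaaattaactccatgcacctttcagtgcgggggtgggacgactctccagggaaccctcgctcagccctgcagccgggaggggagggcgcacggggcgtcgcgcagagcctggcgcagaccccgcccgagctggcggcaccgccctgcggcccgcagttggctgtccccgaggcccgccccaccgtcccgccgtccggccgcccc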

How the data were processed

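Pancreas RNA of 16 mice was sequenced as 100-base read pairs from stranded poly(A) libraries. Per the submitters' processing notes, the tools were Trim Galore 0.6.7, cutadapt 3.5, STAR 2.7.9 and DESeq2, and the build was mm10. The authors deposited raw counts for 24411 genes. The counter, strand setting, annotation and covariates are not given in the sources used here. A second deposited table holds a normalized signal for 17548 genes, in which each mouse's raw counts are scaled by a single factor (0.617 to 1.44), and was used only to check the first. Tests used edgeR 4.0.16 under R 4.3.3 (TMM, filterByExpr, quasi-likelihood test, limma 3.58.1 as its dependency) in 1 model of 3 groups plus batch, with Benjamini-Hochberg adjustment over all 13660 genes and a threshold of 0.05. Standard errors are the absolute log2 fold change divided by the root of F. Log2 CPM used a prior count of 2. DESeq2 1.42.0 and the other alternatives are given in the closing section. The genes, the lists and the adipocyte covariate were chosen with earlier results of these data known. All 9 genes are named. A list gene is named if it passed in either of the first 2 comparisons at a mean log2 CPM of at least 0, up to 4 a list and direction. Likeness was ranked by Pearson r over 16 mice. No 2 libraries were alike (chi-square per gene of at least 8.09 over 120 pairs, where sampling noise gives about 1). Counting precision follows the reads per gene, and p-values measure the spread between these mice. A result on 1 further list gene is not reported here.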

Additional observations from a re-analysis of the deposited data

Results flagged for a closer look

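Among 27 sets of values (9 genes in 3 groups), chance would set about 1 in 20 apart, and 1 stood apart. Acadl in Lep(ob/ob) mouse 463 was at 53.6 CPM, the highest of 7, and its gap to the next mouse, 461 at 30.3 CPM, took 0.619 of the range of the group on the log2 scale. Mouse 463 also had the highest adipocyte score, 7.20, and without it the log2 fold change of Acadl between Lep(ob/ob) and WT mice stayed past the threshold. The part of fat tissue in this value was not tested within the mouse.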

How the results depend on the processing

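Between Lep(ob/ob) and WT mice, Pdk4, Ucp2 and Acadl kept a positive log2 fold change under every alternative in which they were tested. They lost the call within single batches as given above. Pdk4 was not tested with the filter of at least 10 counts in every mouse. Leaving out 1 mouse gave 3 to 4 of the genes and 6.14% to 10.5% of all genes tested. It gave 0% to 0.0657% of all genes for treated against untreated Lep(ob/ob) mice. For treated against WT mice it gave 0 to 2 of the genes and 3.7% to 7.17% of all. For the adipocyte slope it gave 4 to 6 of the genes and 18.3% to 37.3% of all, counted in either direction. As reported, 4854 of 13660 genes passed for that slope in either direction.

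Shares of all genes called are given for obesity (Lep(ob/ob) against WT), treatment (treated against untreated) and treated against lean mice. They were 9.07%, 0.0586% and 5.57% as reported. With no batch term they were 5.84%, 4.17% and 10.5%, with 1 gene of the 9 (Ucp2) passing for treatment and 2 for treated against lean. In batch B alone they were 0.057%, 0.0142% and 0.0926%, with 0 of the genes for obesity and for treated against lean. With the islet score they were 28.6%, 0.154% and 10.6%, with 7 of the genes for obesity and 4 for treated against lean. DESeq2 gave 0.761% for treatment. At least 10 counts in every mouse gave 6.97% for obesity and 3.91% for treated against lean, with 0 of the genes in the latter. That filter dropped Pdk4, with 7 reads in WT mouse 5489, so Pdk4 was not tested there and its call was not lost. Fits of only 2 groups gave 0.0224% for treatment and 2.18% for treated against lean. Proglumide mice alone gave 0% and 1.65%, lorglumide mice alone 0% for treatment, and each gave 0 of the genes against lean mice. The adipocyte score gave 1.46% for treatment and 16.5% for treated against lean, leaving out the 4 mice of high score 9.64% in the latter, and a log2 fold change of at least 1 gave 5.21% for obesity. With the adipocyte score, 4 pathway genes fell with obesity, 1 rose with treatment, and 6 rose and 5 fell in treated against lean mice.

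No log2 fold change that turned its sign had passed the test as reported. For obesity, Acot2 was -0.199 and Ucp3 -0.671 with the adipocyte score, and -0.251 and -0.264 without the 4 mice. For treatment, Pdk4 was -0.003 when the normalization skipped the 50 genes with most reads, -0.146 with only 2 groups, -0.1 in batch B, -0.017 with lorglumide alone and -0.339 without the 4 mice. Angptl4 was 0.333 with the adipocyte score, and without the 4 mice Angptl4, Acot2, Plin2 and Ucp3 were 1.645, 0.332, 0.21 and 0.189. For treated against lean, Cpt1a and Acot2 were -0.232 and -0.153 with no batch term and -0.049 and -0.248 with the adipocyte score. Ucp3 was -0.886 with that score and -0.075 without the 4 mice. With lorglumide alone Acot2, Plin2 and Ucp3 were -0.005, -0.048 and -0.619. Leaving out 1 mouse, the ranges for treatment were -0.117 to 0.289 for Pdk4, -1.069 to 0.606 for Angptl4, -1.631 to 0.117 for Plin2 and -1.602 to 0.234 for Ucp3. For treated against lean they were -0.029 to 0.187 for Cpt1a, -0.064 to 0.192 for Acot2 and -0.619 to 0.801 for Ucp3. The cause was not tested. The islet score and the 4 mice left out were chosen after seeing the data. Without the 4 mice, mouse 464 was the only untreated Lep(ob/ob) mouse of batch B.

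No paired analysis was possible because mice of different groups have different numbers. Acot1 and Ucp3 had few reads, and treatment was given in batch B only.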
